A study of Arabidopsis thaliana with 8 samples.

Results

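Leucine, isoleucine and valine are the branched-chain amino acids, which plants make in their plastids and animals must take from food. Ketol-acid reductoisomerase and dihydroxyacid dehydratase catalyse consecutive steps of the pathway, and the same enzymes serve the routes to isoleucine and to valine. The reductoisomerase rearranges and reduces the acetohydroxy acids made by acetohydroxyacid synthase, using NADPH. The dehydratase, an iron-sulfur enzyme, removes water from the product to give the keto acids from which aminotransferases make valine and isoleucine, and from one of which the leucine branch starts. Transcripts of these genes, AT3G58610 for the reductoisomerase (called KARI below) and AT3G23940 for the dehydratase (called DHAD below), were followed in Arabidopsis thaliana between 1 and 4 weeks of age.

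The 2 genes were taken as the rows of the array table whose annotation names that gene and no other, and each has 1 such row, out of 3439 rows in all and 692 that name a single gene. All 8 samples were total RNA of wild-type plants of the ecotype Columbia 0, a standard laboratory accession, with 4 samples of 1-week-old and 4 of 4-week-old plants and no treatment named. The labels number the samples 1 to 4 within each age without saying what a number stands for, and neither the organs taken nor the use of separate plants for each sample is stated. The p-values therefore measure the spread between these samples only, which may be technical, and precision is limited by having 8 samples. In RNA of whole tissue, fewer cells of a type and less RNA per cell cannot be told apart.

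The deposited values are array signals in arbitrary units, and each sample's signals summed to between 3070 and 3374. Both genes had a signal above 0 in all samples. The median signal of a sample over all rows lay between 0.390 and 0.453. At 4 weeks both genes were below the median of every sample. At 1 week DHAD was above it in every sample, and KARI in all but sample 3. As a check of the tissue, 4 of 12 leaf marker genes had a row of their own. Their summed signal, 74.3% to 89.7% of which came from the photosystem II gene PSBW alone, ran from 16.5 to 33.5 in the 1-week samples and from 20.6 to 33.7 in the 4-week samples, so it says little of the others. Among these, SBPASE of the Calvin cycle, was listed at 0 in 6 of the 8 samples. Of the 3 that could be tested, 2 rose and 0 fell, where 25.3% of all tested rows were called higher and 20.4% lower at 4 weeks. None of 14 root, flower, seed and senescence markers had such a row, so the part of organ makeup in the differences below was not tested.

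Transcripts of both enzymes were lower in the older plants. DHAD was 2.19-fold lower at 4 weeks (95% confidence interval 1.88 to 2.56) and KARI 1.62-fold lower (1.15 to 2.29), with 4 samples per age. The comparison asked which transcripts differ in level between plants of these ages. Both members thus passed in the same direction, although the call of KARI changed with single samples, as given below. Of the 2924 rows tested, 20.4% were called lower at 4 weeks and 45.7% in either direction, so a fall of this kind was common on the array. Over all tested rows the log2 difference had a median of 0.16 and quartiles at −0.40 and 0.58, so both genes moved against the direction of the median row.

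KARI comes first of the pair in the pathway. In 1-week plants its deposited signal was 0.479, 0.467, 0.332 and 0.537 in samples 1 to 4. In 4-week plants it was 0.357, 0.337, 0.268 and 0.231. Sample 3 was by far the lowest of the 1-week samples and lay below samples 1 and 2 of the older plants, so the ages overlapped. The means were 0.453 ± 0.0867 and 0.298 ± 0.0586 (SD, n = 4), and quantile normalized signals differed by −0.70 in log2 units (SE 0.22, limma adjusted p = 0.0297). Permuting the ages of these values in an exact, two-sided test gave p = 0.0571, where the smallest p that 70 assignments of 4 against 4 allow is 0.0286.

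The call of KARI changed with single samples. With sample 1, 2 or 4 of the younger plants left out the limma adjusted p was 0.0620, 0.0578 and 0.0703, and with sample 3 or 4 of the older plants left out 0.0684 and 0.0619, with log2 differences from −0.68 to −0.55. Averaging samples 1 and 2, and samples 3 and 4, which resemble each other across the array, gave an adjusted p of 0.183. That fit called 8.56% of rows lower at 4 weeks. Comparing these averages within their pair gave an adjusted p of 0.0559. With the same sets of samples as a fixed block, without averaging, the limma adjusted p was 0.00981.

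DHAD acts on the product of KARI. In 1-week plants its deposited signal was 0.755, 0.815, 0.889 and 0.860 in samples 1 to 4. In 4-week plants it was 0.375, 0.388, 0.371 and 0.430. The ages were far apart for this gene, with the lowest 1-week sample at 0.755 and the highest 4-week sample at 0.430, and 19.2% of tested rows had every 4-week signal below every 1-week signal in this way. The means were 0.830 ± 0.0585 and 0.391 ± 0.0268 (SD, n = 4), and the normalized signals differed by −1.13 in log2 units (SE 0.10, limma adjusted p = 5.80e-05). The exact two-sided permutation test gave its smallest possible p, 0.0286, and 0.0626 after adjustment over the 2814 rows measured in all samples, where 0 rows passed and 1285 had an unadjusted p under 0.05.

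**Figure D1:**
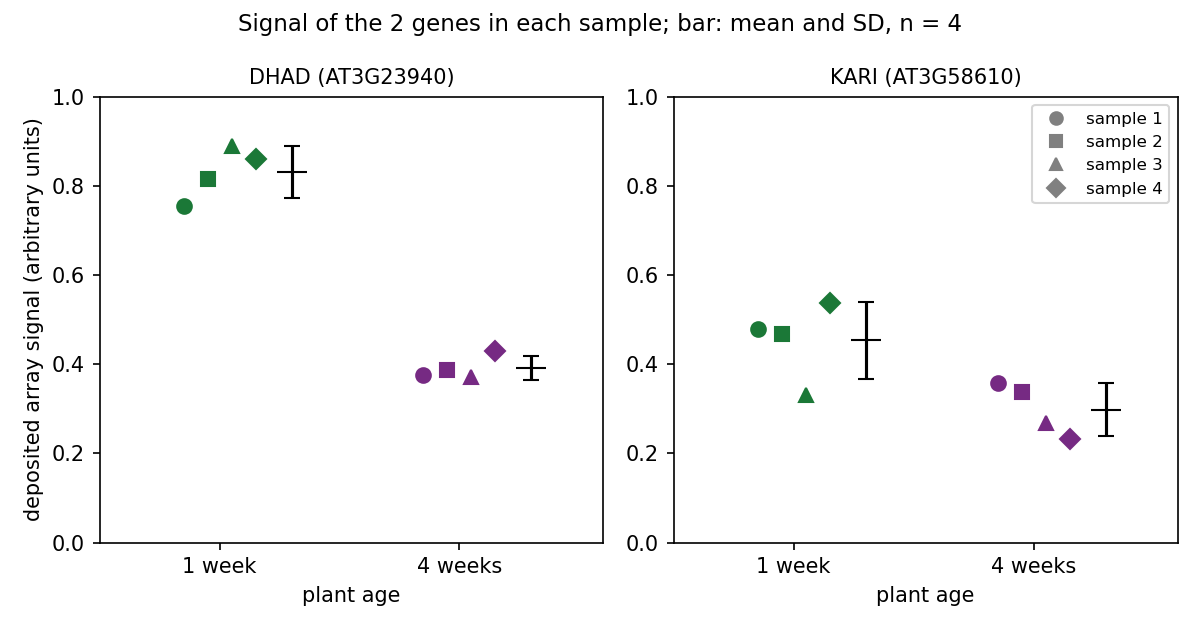
Deposited array signal (arbitrary units, axis from 0) of DHAD and KARI in each sample of 1-week (green) and 4-week plants (purple), with symbols for the sample number and a black bar for the mean and SD (n = 4). The DHAD samples of the ages are far apart, from 0.755 upward at 1 week and up to 0.430 at 4 weeks, while 1-week sample 3 of KARI (0.332) lies among the 4-week samples.

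The genes differed in how widely their samples spread within an age. The SD of DHAD was 7.04% of its mean at 1 week and 6.85% at 4 weeks, and that of KARI was 19.1% and 19.7%. On the normalized log2 scale the SD of DHAD was 0.06 and 0.07, against 0.27 and 0.37 for KARI. The samples of KARI with the largest deviations from their age mean were 4-week sample 4, at −0.45, 1-week sample 3, at −0.39, and 4-week sample 1, at 0.35. DHAD stayed within −0.10 and 0.07 of its age mean in all 8 samples. These spreads are given as descriptions of 4 samples per age and were not compared by a test.

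Set against the 4-week sample of the same number, the 1-week signal of DHAD was 2.01, 2.10, 2.39 and 2.00 times as high in numbers 1 to 4. For KARI these ratios were 1.34, 1.39, 1.24 and 2.32. All were above 1, with 3 of the 4 KARI ratios close together and number 4 apart from them. The normalized log2 difference of KARI was −0.48 in samples 1 and 2 of both ages alone and −0.92 in samples 3 and 4 alone. In DHAD these differences were −1.09 and −1.18. A test of whether the age difference itself differed between these sets of samples gave an estimate of −0.44 for KARI (SE 0.30, limma adjusted p = 0.460) and −0.09 for DHAD (SE 0.15, limma adjusted p = 0.753), and called 9 of 2814 rows.

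The fall of DHAD was not shown to be larger than that of KARI. The log2 signal of DHAD minus that of KARI in the same sample was 0.68, 0.82, 1.33 and 0.64 in 1-week samples 1 to 4. It was 0.08, 0.21, 0.49 and 0.95 in 4-week samples 1 to 4. The ages overlapped, since 4-week sample 4 lay above 1-week samples 1, 2 and 4. Since the rows differ in their probes, only the shift of this quantity between the ages can be read, not its size. It shifted by −0.43 from 1 to 4 weeks, from a mean of 0.86 ± 0.32 to 0.43 ± 0.39 (SD, n = 4), and the exact two-sided permutation test gave p = 0.143. Without 4-week sample 4 the shift was −0.61 and the exact p 0.0286, the smallest p that assignments of the remaining samples allow. Over the other samples left out in turn the exact p ran from 0.143 to 0.314.

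Few other genes of amino acid synthesis had a row of their own. Of the 21 genes listed for branched-chain amino acid synthesis, from threonine deaminase and acetohydroxyacid synthase to the isopropylmalate enzymes and the aminotransferases, only DHAD and KARI did. None of 9 genes of branched-chain amino acid breakdown, 3 of pantothenate synthesis, which draws on the valine route, and 12 of plastid iron-sulfur cluster assembly, which supplies enzymes such as dihydroxyacid dehydratase, had one. The steps before and after the pair were therefore not analysed here. Of 78 genes listed for the synthesis of other amino acids, 4 had a row of their own and could be tested. In the fit without a block 1 of these fell, 0 rose and 3 did not pass. Over all tested rows that fit called 20.4% lower and 25.3% higher. With the sample number as a block the same gene fell and 2 rose, in a fit that called 23.9% of rows lower and 32.7% higher. Without a block the log2 differences of the 4 genes went both ways, with 2 below and 2 above 0 and a median of 0.17.

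The gene that fell was AT4G26900 (HISN4, also AT-HF), which encodes an enzyme of histidine synthesis in plastids. Its deposited signal was 1.58, 1.40, 1.16 and 1.32 in 1-week samples 1 to 4. It was 0.769, 0.849, 0.686 and 0.672 in 4-week samples 1 to 4. The ages did not overlap, and the lowest 1-week sample was sample 3, as it was for KARI. In the older plants HISN4 was 1.78-fold lower, a log2 difference of −0.83 with an SE of 0.16 (limma adjusted p = 0.00315). Averaging samples 1 and 2, and 3 and 4, raised that p to 0.105.

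The other 3 genes did not pass in the fit without a block. CBL, for cystathionine beta-lyase of methionine synthesis, had a deposited signal of 0.0658, 0, 0.126 and 0.122 in 1-week samples 1 to 4, and of 0.161, 0, 0.225 and 0.354 in 4-week samples 1 to 4. Sample 2 was listed at 0 at both ages and was left out of the fit, whose log2 difference was 1.01 (SE 0.40, limma adjusted p = 0.0824). With the sample number as a block the limma adjusted p of CBL was 0.0129, and on the values as deposited and after median centring it was 0.0386 and 0.0407. With a pseudocount, which keeps the samples at 0, the log2 difference of CBL was 0.45 (limma adjusted p = 0.602), and the alternatives gave adjusted p-values between 0.0103 and 0.602. AT5G10920, from the list for arginine and proline, had signals from 1.23 to 2.02 at 1 week and from 1.97 to 4.52 at 4 weeks. It differed by 0.96 in log2 units (SE 0.35, limma adjusted p = 0.0526), and with the sample number as a block the adjusted p was 0.00150. It passed in 10 of 19 limma alternatives, which gave adjusted p-values between 0.000246 and 0.244. Among those passed were the values as deposited (0.0449), samples 1 and 2 alone (0.00907) and samples 3 and 4 alone (0.00937). It did not pass after median centring (0.0663), with a pseudocount (0.0957) or with the pairs averaged (0.244). With single samples left out it passed without 1-week sample 2 (0.0401), 4-week sample 3 (0.0340) or 4-week sample 4 (0.0438), and not without any other. AT3G53580, from the list for the aspartate family of amino acids, differed by −0.63 on that scale (SE 0.65, limma adjusted p = 0.449), with nearly the same highest signal, 0.275, at both ages. Without 4-week sample 2, whose signal was 0.0392, it was 0.058. In the fit without a block, 3 of the 6 tested genes of amino acid synthesis fell, namely DHAD, KARI and HISN4, and 0 rose, against 20.4% and 25.3% of all tested rows. With the sample number as a block the same 3 genes fell and 2 rose, CBL and AT5G10920, in a fit that called 23.9% of rows lower and 32.7% higher. DHAD and KARI are the genes the description started from, so only the other 4 can be set against these shares.

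**Figure D2:**
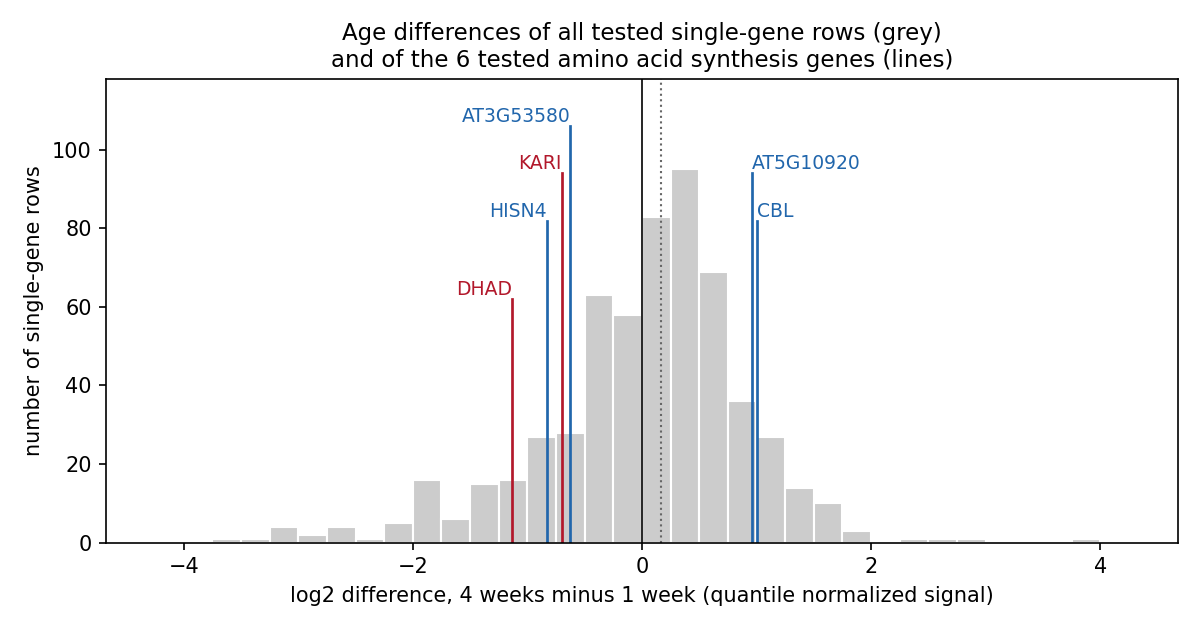
Histogram of the log2 difference (4 weeks minus 1 week, quantile normalized signal) of the 588 tested single-gene rows in grey, with the y axis giving the number of rows, a solid line at 0 and a dotted line at their median. Coloured lines place DHAD (−1.13) and KARI (−0.70) in red and the other 4 tested genes of amino acid synthesis in blue, and their heights carry no value.

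Among all tested rows, 10.7% had a more negative log2 difference than DHAD and 17.7% a more negative one than KARI. Among the 588 tested single-gene rows, DHAD had the 65th most negative difference and KARI the 105th. Both falls were thus well inside the range of the array. Of all tested rows, 11.6% were called and at least 2-fold lower at 4 weeks, a group that holds DHAD and not KARI.

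The genes most like DHAD over the 8 samples were found among 563 other single-gene rows as those with the smallest root mean square difference between row-centred normalized log2 signals. Nearest was AT5G15390, at 0.10. Deposited signals of AT5G15390 averaged 0.396 ± 0.00971 in the younger and 0.204 ± 0.00622 in the older plants (SD, n = 4). It was followed by AT4G30150 at 0.14, and by AT4G30740, AT5G38310 and AT4G26370 at 0.16 each. The median over all 563 rows was 0.72. Each of the 5 genes fell, with log2 differences from −1.31 to −0.89 that passed in the fit (limma adjusted p from 8.68e-05 to 0.000258), which follows from the way they were found.

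The row most like KARI was that of HISN4, with a root mean square difference of 0.20. AT5G62840 came next at 0.21, and AT2G38500, AT5G47890 and AT4G21820 lay at 0.25, 0.25 and 0.26, against a median of 0.62 over the 563 rows. Signals of AT5G62840 averaged 1.69 ± 0.143 in the younger and 1.12 ± 0.109 in the older plants (SD, n = 4). The fit gave −0.48 in log2 units for this gene (SE 0.13, limma adjusted p = 0.0156). It lost the call in 4 of 19 limma alternatives, with the highest adjusted p, 0.226, where the pairs were averaged. AT5G47890 did not pass (log2 difference −0.31, limma adjusted p = 0.0721). It passed in 1 of 19 limma alternatives, with samples 1 and 2, and 3 and 4, as a fixed block (0.0320). The pathway partners were not each other's nearest rows. Their root mean square difference from each other was 0.38, which placed KARI 76th among the rows nearest to DHAD and DHAD 58th among those nearest to KARI. The measure follows the age difference as well as the spread within an age, and it is a description without a test.

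**Figure D3:**
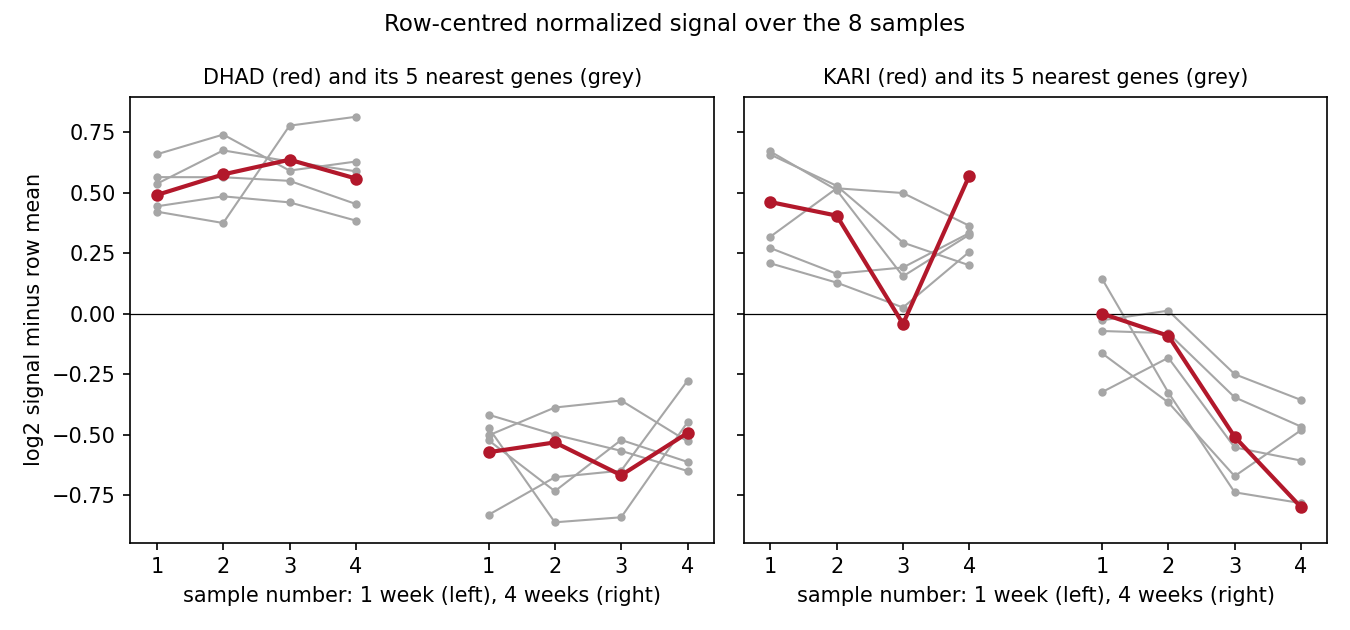
Normalized log2 signal minus the row's mean (y axis) in the 4 samples of 1-week plants and the 4 of 4-week plants (x axis, sample numbers), for DHAD and KARI in red and their 5 nearest single-gene rows in grey. Lines join the samples of a gene within an age and carry no order. DHAD and its nearest rows lie above 0 in all 1-week and below 0 in all 4-week samples. KARI is at −0.04 in 1-week sample 3 and at 0.001 in 4-week sample 1. Among its nearest rows, AT2G38500 is at 0.145 in 4-week sample 1 and AT5G47890 at 0.013 in 4-week sample 2.

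Under the settings tried, the direction of both falls was the same. The log2 difference of DHAD stayed between −1.18 and −1.004, and its limma adjusted p between 1.10e-05 and 0.0364. That of KARI ran from −0.92 to −0.48, with a limma adjusted p from 0.00981 to 0.183.

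**Figure D4:**
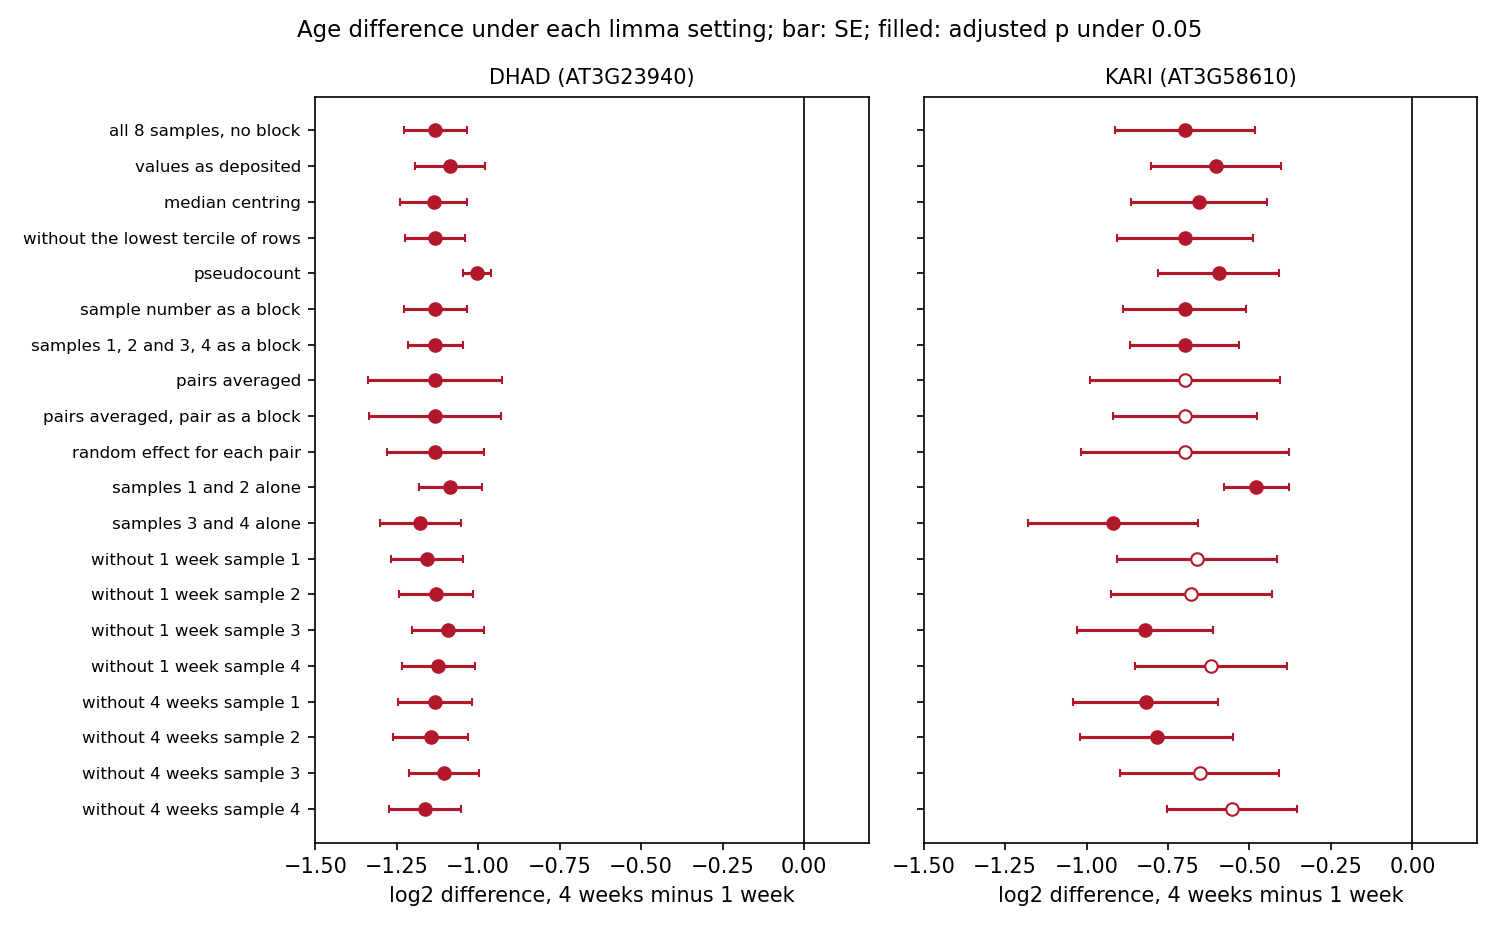
Log2 difference between the ages (x axis, 4 weeks minus 1 week) with its SE for DHAD and KARI under each limma setting (y axis), with filled points where the adjusted p was under 0.05. All points of DHAD are filled and lie between −1.18 and −1.004, while those of KARI range from −0.92 to −0.48 and several are open.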

How the data were processed

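The deposited table gives, for 3439 rows and 8 samples, a linear array intensity. Its scanning, background correction and scaling are not given in the sources. No value is below 0, some are exactly 0, and the highest lie at a ceiling of 100. Ages and sample numbers came from the labels. Rows were named by GEO's platform annotation, updated through gene numbers with a RefSeq table (assembly TAIR10.1, 690 of 692 single-gene rows matched). A row naming several genes (870) or none (1877) names no gene here. No coordinates are printed, since no source names the build of the array. The 2 members have no symbol in that table, and DHAD and KARI abbreviate the enzyme names.

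Signals were log2 transformed, with 0 as missing, and quantile normalized, because the sample medians of these log2 values differed by up to 0.12. A row needed 3 measured samples per age, and 2 rows at the ceiling in all samples were left out. Rows were fitted in R 4.3.3 by limma 3.58.1 (lmFit, eBayes), 4 weeks minus 1 week, without a block. The eBayes step moderates the variance of a row by those of all fitted rows, so each limma SE and p draws on other rows too. Benjamini-Hochberg adjustment ran over all 2924 tested rows, with a threshold of 0.05. The fit was first tested on simulated data. Permutation tests enumerate all assignments, which are 70 for the 8 samples and fewer where a sample was left out. Alternatives changed the scaling, the filter, the treatment of 0s, the block, the samples used and the test (random effects with statmod 1.5.0). Members, gene lists and tests were chosen with earlier results of these data known. Named were both members, every gene of the metabolic lists with a row of its own, and the 5 rows nearest to each member. Same-numbered samples deviated together from their age means, and these deviations correlated at 0.425 to 0.527 in the 4 pairs, against 0.180 to 0.396 for other numbers within samples 1 and 2 or 3 and 4, and −0.419 to −0.351 between them. All 4 correlations were over 0.1, the limit used here for treating numbers as pairs, but no label states a pairing. The fit without a block therefore remained the main one, and values with the sample number as a block are printed where a call differs.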

Additional observations from a re-analysis of the deposited data

How the results depend on the processing

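DHAD kept its direction and stayed past the threshold in all 19 limma alternatives. In the replicate block (the sample number as a block) its log2 difference was −1.13 (limma adjusted p = 0.000713) and that of KARI −0.70 (0.0263), so this pairing changed the call of neither. Leaving out each sample in turn gave −1.16 to −1.09 for DHAD and −0.82 to −0.55 for KARI, which passed in 3 of 8 such fits. KARI, at −0.70 in each of the following, also missed the threshold with the pairs of samples 1 and 2, and 3 and 4, averaged (limma adjusted p = 0.183), averaged with the pair as a block (0.0559), with a random effect for each pair (0.145) and in the exact permutation test (unadjusted p = 0.0571). The cause was not tested, although averaging leaves fewer values. The shift of DHAD minus KARI ran from −0.61 to −0.28 without 1 sample. The count of 1337 rows that differ between the ages was 393 with the pairs averaged and 727 with the random effect. It was 1070 to 1276 without 1 sample, and within 1.5 times of the main count in the other limma settings. In the exact permutation test 1285 rows had an unadjusted p under 0.05 and 0 passed after adjustment. The smallest possible p of that test, 0.0286, became 0.0626 after adjustment, a value that depends on how many rows reach that smallest p. Over 237 limma alternatives for the other 13 named genes, run after the data were seen, 210 kept direction and side of the threshold, 10 lost and 16 gained the call, and AT3G53580 turned to 0.058 without 4-week sample 2, within a range of −0.95 to 0.058 without 1 sample. Alternatives that left a row with too few measured samples, as for CBL, or that dropped dim rows, as for AT3G53580 and AT5G15390, gave no value for them. How far the signals lie above background is not given, which limits what dim rows can show.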
